A study of Mus musculus with 60 samples.

Results

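This account concerns the change in gene expression between 0.5 and 2 h of HGF treatment in mouse hepatocytes without and with the HGF receptor Met, and the difference of that change between the genotypes. The members are 24 of the 60 arrays of the series, chosen by their titles, and they read 12 of its 30 replicates. The groups were KO at 2 h, KO at 0.5 h, WT at 2 h and WT at 0.5 h, with 3 replicates each. KO hepatocytes came from Alb-Cre +/-; Met Fl/Fl mice of strain 129SV/C57BL6, in which the albumin promoter drives Cre in liver parenchyma. WT hepatocytes were labelled Cre Control and strain C57BL, so strain and genotype changed together and cannot be told apart. All mice were males of 9-10 weeks, and cells were cultured from 3 individual mice. The cells were plated in medium with serum, moved to serum-free medium after 4 h, and treated the next day with recombinant human HGF at 50 ng/ml, which the treatment field gives as 50 nM. Untreated cultures were not used here, so each value describes a step between treated cultures and not a response to HGF. The p-values measure the spread between these cultures. The RNA is that of whole cultures, in which fewer cells of a type and less RNA per cell cannot be told apart.

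Hepatocyte growth factor binds Met, a receptor tyrosine kinase at the surface of hepatocytes, and Met signals through the ERK and PI3 kinase cascades. Within the first hour such signals induce immediate early genes, among them the AP-1 and EGR transcription factors, ligands of the EGF receptor and phosphatases that switch ERK off again. In the liver Met is known for its part in regeneration, survival and migration of hepatocytes.

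Each replicate was hybridised against pooled WT hepatocyte RNA on 2 oligonucleotide arrays with the dyes exchanged, and its value is the mean of both log2 ratios after centring every array on its median. The sources used here do not say which RNA is the numerator, and sample over reference was assumed for both orientations. Under this reading some known early response genes were positive in WT cells at 0.5 h, with means of 2.11 ± 0.25 for Errfi1, 1.64 ± 0.09 for Hbegf, 1.00 ± 0.31 for Ier2 and 0.90 ± 0.40 for Dusp1 (SD, n = 3). Others were not, with -0.26 ± 0.25 for Jun, -0.19 ± 0.20 for Fos and -0.07 ± 0.08 for Fosb, so these genes do not settle the direction. Means of both orientations cannot show whether the 2 run the same way. If all ratios ran the other way, every sign given below would turn. If those of 1 orientation did, the means would mix opposite signs. Values per array numbered 17356 to 21505, and the replicate spread within a group was a residual SD of 0.170 to 0.219. Albumin, the main secreted protein of hepatocytes, differed little between the groups, with -0.03 ± 0.05 in KO cells at 2 h, -0.09 ± 0.03 in KO cells at 0.5 h, -0.05 ± 0.08 in WT cells at 2 h and 0.01 ± 0.05 in WT cells at 0.5 h. A ratio to hepatocyte RNA does not show whether a hepatocyte gene is abundant.

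The dyes did not behave alike in the groups. At 2 h the log2 ratios of an array had an SD of 0.287 to 0.474 on all 12 arrays. At 0.5 h the SD was 0.720 to 0.800 on the Cy5 arrays and 0.638 to 0.898 on the Cy3 arrays of KO cells, against 0.649 to 0.805 on the Cy5 arrays and 0.376 to 0.404 on the Cy3 arrays of WT cells. The arrays of one replicate correlated at -0.677 to -0.489 in KO cells at 0.5 h, and 8 of the 12 pairs were negative. A pattern that follows the dye cancels in the mean of a replicate only where both arrays carry it equally. The 3 profiles that best describe the difference between dye orientations held 24.8 to 38.4% of the variance of WT replicates at 0.5 h, against at most 11.3% in any other replicate. The values on each dye, and values after regressing out these 3 profiles, are therefore given beside many results below. The profiles were taken from these same arrays. If the ratios of 1 orientation ran the other way, the profiles would hold differences between samples. A call kept after their removal is therefore no independent check. Between KO and WT cells at 0.5 h, the Cy5 arrays correlated at a median of 0.710 and the Cy3 arrays at 0.198. All arrays but those of KO replicate 3 at 2 h lay in 1 set of array numbers, and each group formed its own run of numbers there, so array run and group cannot be told apart.

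Where the Met probe lies relative to the floxed exons is unknown here, so it cannot check the genotype labels. Met had log2 ratios of 0.03, -0.05 and 0.29 in KO hepatocytes at 2 h and 0.25, 0.17 and 0.41 in KO hepatocytes at 0.5 h, against -0.17, 0.04 and -0.04 in WT hepatocytes at 2 h and 0.25, 0.21 and 0.41 in WT hepatocytes at 0.5 h. The groups overlapped at each time, and the difference of the steps, 0.16 ± 0.16, did not pass the test (adjusted p = 0.549).

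The genotype difference of the step was the KO step (KO at 2 h minus KO at 0.5 h) minus the WT step (WT at 2 h minus WT at 0.5 h), fitted with limma to 16795 probes. Values after ± are standard errors (SE) from limma unless given as SD, and called means an adjusted p under 0.05. A positive difference means that expression moved further up, or less far down, in KO than in WT cells. At a Benjamini-Hochberg adjusted p under 0.05, 1060 probes were called higher, 6.31% of those tested, and 994 were called lower, 5.92% of those tested. The KO step was called upward for 735 probes, 4.38%, and downward for 924, 5.5%, against 2506 upward, 14.9%, and 3152 downward, 18.8%, for the WT step. The lists below hold 1 probe per named gene. Of all 11397 such genes, 844 were called higher and 524 lower. Their KO step was called upward for 528 and downward for 607, and their WT step for 1394 and 2345. Of the 2054 called probes, 1608 had a WT step larger in size than the KO step, and 1505 had steps of opposite sign. A difference between KO and WT cells was called at 2 h but not at 0.5 h for 166 of these probes, and at 0.5 h but not at 2 h for 1532. The steps of both genotypes plotted against each other show this as a cloud that is wider along the WT axis. The squared correlation with the 3 dye profiles was 0.349 for the WT step and 0.015 for the KO step. For KO minus WT it was 0.408 at 0.5 h and 0.008 at 2 h. On Cy5 and Cy3 alone the SD across probes was 0.581 and 0.605 for the KO step, against 0.596 and 0.457 for the WT step. The KO steps on the 2 dyes correlated at -0.542 and the WT steps at 0.130, and opposed values cancel in a mean. The part of the dyes in these counts was not tested.

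**Figure D1:**
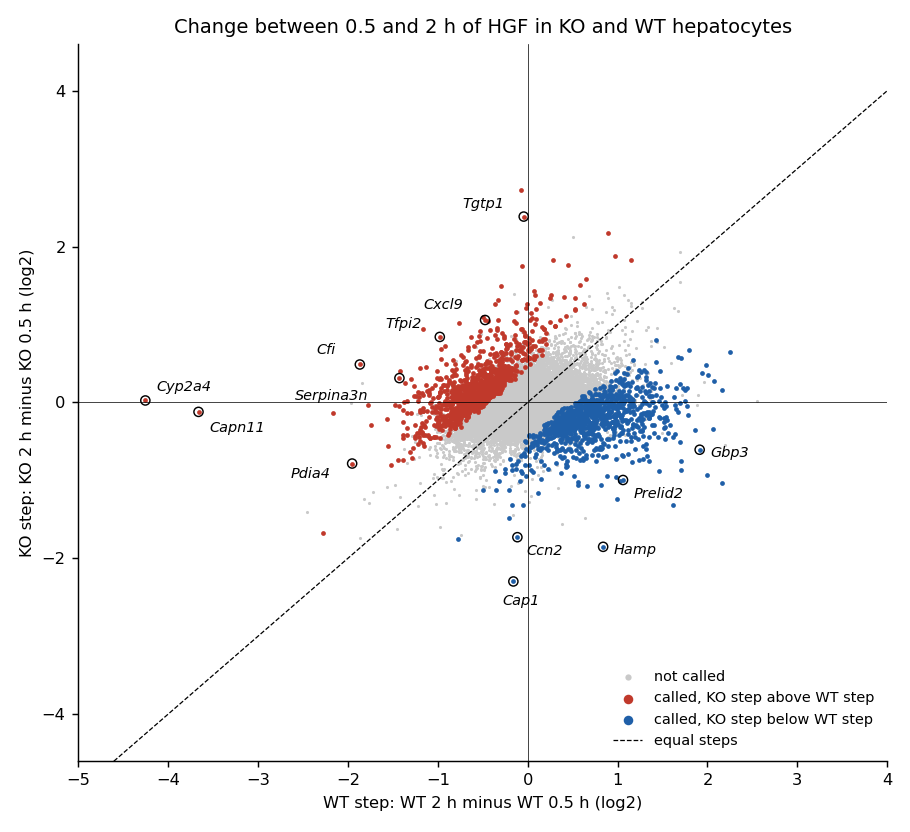
Each point is a probe, with its WT step (log2, WT 2 h minus WT 0.5 h) on the horizontal axis and its KO step (log2, KO 2 h minus KO 0.5 h) on the vertical axis; red points are the 1060 probes called with a KO step above the WT step, blue points the 994 called below it, and circled points are named genes. Cyp2a4 and Capn11 lie far to the left at a KO step close to 0, while Cap1 and Hamp lie at the bottom.

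These counts depended on the dyes. The differences computed from the Cy5 arrays alone and from the Cy3 arrays alone correlated at r = 0.114 across 11358 probes, which are not independent replicates. The Cy3 arrays alone gave 5661 calls and the Cy5 arrays alone gave 34. With the dye profiles regressed out, 465 probes were called higher, 2.77% of those tested, and 334 lower, 1.99% of those tested. Called both as measured and with the profiles removed, and of one sign on both dyes, were 589 probes, 350 higher and 239 lower, and this combination was chosen after the data were seen. The number of calls was 1153 without KO replicate 2 at 2 h, 1272 without WT replicate 3 at 0.5 h and 1270 without WT replicate 1 at 2 h. A fit that shared its spread with all 10 groups of the series left 80 calls, and of the genes named below it kept Cyp2a4, Capn11, Cfi, Ms4a6b, Tfpi2, Hamp, Pdgfd, Prelid2, Mx1, C1qb and Dcn.

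**Figure D2:**
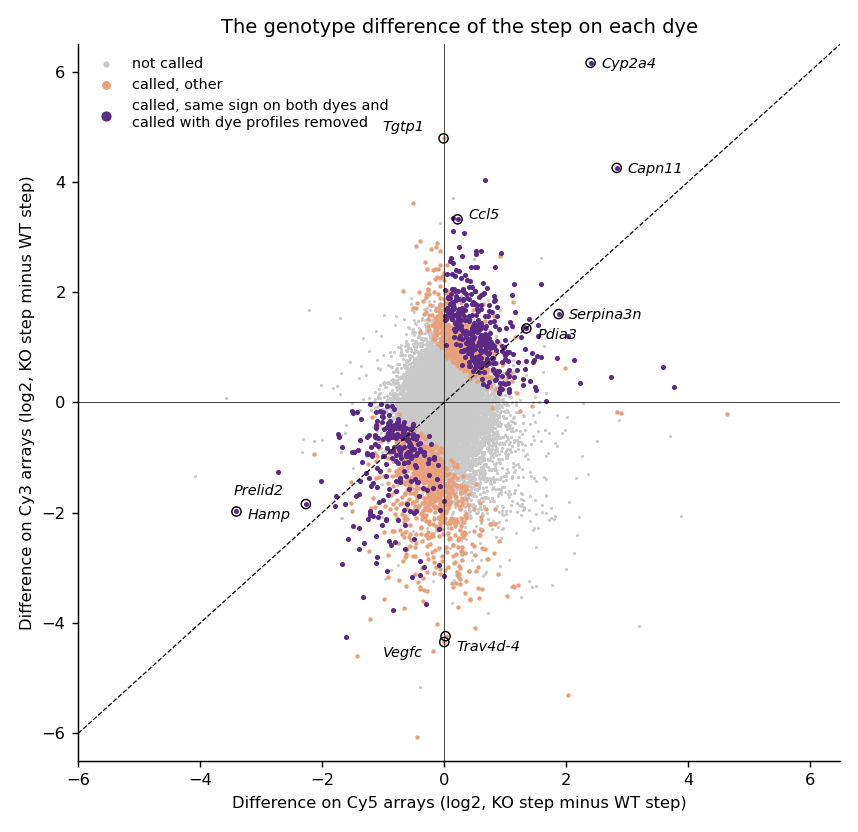
Each point is a probe, with the genotype difference of the step (log2, KO step minus WT step) on the Cy5 arrays on the horizontal axis and on the Cy3 arrays on the vertical axis; purple points are the 589 probes called both ways and of one sign on both dyes, and orange points are other called probes. Cyp2a4, Capn11, Hamp and Prelid2 lie away from 0 on both axes, while Tgtp1, Vegfc and Trav4d-4 lie on the vertical axis, far from 0 on Cy3 only.

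The largest difference belonged to Cyp2a4, a cytochrome P450 that hydroxylates steroids. Cyp2a4 had log2 ratios of -0.09, 0.11 and -0.04 in KO hepatocytes at 2 h and -0.0035, 0.20 and -0.29 in KO hepatocytes at 0.5 h, against -3.11, -3.30 and -3.06 in WT hepatocytes at 2 h and 0.75, 1.23 and 1.31 in WT hepatocytes at 0.5 h. The 3 WT values at 2 h lay more than 2 log2 units below all others, and the KO values at the 2 times overlapped. Its KO step was 0.02 ± 0.15 and its WT step -4.25 ± 0.15, a difference of 4.28 ± 0.22 or 19.4-fold (adjusted p = 1.46e-07). The difference was 2.40 on Cy5 and 6.16 on Cy3. Cyp2a genes have near-identical copies, and the probe may read more than one of them.

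Capn11, a calpain protease described mainly in testis, showed the same shape. Capn11 had log2 ratios of -0.02, -0.25 and -0.01 in KO hepatocytes at 2 h and 0.11, 0.24 and -0.27 in KO hepatocytes at 0.5 h, against -3.43, -3.33 and -3.47 in WT hepatocytes at 2 h and 0.16, 0.17 and 0.43 in WT hepatocytes at 0.5 h. Again the WT values at 2 h stood apart from the 9 others. The KO step was -0.12 ± 0.13, the WT step -3.66 ± 0.13, and their difference 3.54 ± 0.19 (adjusted p = 1.46e-07), with 2.83 on Cy5 and 4.25 on Cy3.

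In Cfi, complement factor I, a protease that inactivates C3b and C4b, it was the WT cultures at 0.5 h that stood apart. Cfi had log2 ratios of -0.29, -0.03 and -0.32 in KO hepatocytes at 2 h and -0.71, -0.73 and -0.66 in KO hepatocytes at 0.5 h, against -0.70, -0.73 and -0.52 in WT hepatocytes at 2 h and 1.04, 1.27 and 1.34 in WT hepatocytes at 0.5 h. The WT values at 0.5 h were the highest of all, and in KO cells the values at 2 h lay above those at 0.5 h. The difference of the steps was 2.35 ± 0.16 (adjusted p = 3.16e-06), with 0.67 on Cy5, 4.04 on Cy3 and 2.02 with the dye profiles removed.

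Tgtp1, an interferon-induced GTPase, rose in KO cells. Tgtp1 had log2 ratios of 0.01, 0.10 and -0.07 in KO hepatocytes at 2 h and -1.97, -2.65 and -2.49 in KO hepatocytes at 0.5 h, against -0.66 and -0.91 in WT hepatocytes at 2 h and -1.06, -0.67 and -0.48 in WT hepatocytes at 0.5 h. Its KO step was 2.38 ± 0.18 (adjusted p = 7.58e-06), its WT step -0.04 ± 0.20 (adjusted p = 0.879) and the difference 2.43 ± 0.27 (adjusted p = 0.000224). All of it came from the Cy3 arrays, with -0.01 on Cy5 and 4.79 on Cy3, although it was still 2.04 with the profiles removed (adjusted p = 0.00583).

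Olfr9, an odorant receptor gene, had a difference of 2.12 ± 0.47 (adjusted p = 0.0116) with wide scatter among WT replicates at 0.5 h, which read 0.63, 2.60 and 1.08. Its other groups were tight, at 0.15, 0.27 and 0.34 in KO cells at 2 h, -0.90, -0.59 and -0.59 in KO cells at 0.5 h and 0.28, 0.13 and 0.39 in WT cells at 2 h. Most of it lay on Cy5, with 3.59, against 0.64 on Cy3. The other large positive differences were 2.03 ± 0.57 for Vamp1, a vesicle fusion protein, 1.83 ± 0.25 for Ms4a6b, a membrane protein of the MS4A family, 1.82 ± 0.23 for Tfpi2, a Kunitz-type protease inhibitor, 1.82 ± 0.49 for a probe annotated as KLF11 and 1.79 ± 0.23 for the chemokine Ccl5. Ms4a6b had the same sign on both dyes, with 1.58 on Cy5 and 2.15 on Cy3, whereas Ccl5 had 0.22 on Cy5 and 3.32 on Cy3 and KLF11 2.84 on Cy5 and -0.18 on Cy3. A second Vamp1 probe gave -0.15 ± 0.15 (adjusted p = 0.539), and the called Vamp1 probe lost its call without any one of 8 replicates, and the KLF11 probe without any one of 4.

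Among genes with the opposite difference, Hamp led. It encodes hepcidin, the liver hormone that blocks iron export through ferroportin. Hamp had log2 ratios of 0.0045, -0.11 and 0.12 in KO hepatocytes at 2 h and 2.23, 1.36 and 1.99 in KO hepatocytes at 0.5 h, against 0.19, -0.04 and 0.13 in WT hepatocytes at 2 h and -1.02, -0.62 and -0.58 in WT hepatocytes at 0.5 h. The KO values at 0.5 h were the highest and the WT values at 0.5 h the lowest, and the genotypes overlapped at 2 h. The KO step was -1.85 ± 0.18 and the WT step 0.84 ± 0.18, both past the threshold and in opposite directions, a difference of -2.69 ± 0.26 (adjusted p = 8.32e-05). Both dyes showed it, with -3.41 on Cy5 and -1.98 on Cy3, and it was -3.01 with the dye profiles removed.

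Prelid2, which encodes a protein with a PRELI domain, crossed in the same way. Prelid2 had log2 ratios of -0.26, -0.23 and -0.24 in KO hepatocytes at 2 h and 0.72, 0.73 and 0.81 in KO hepatocytes at 0.5 h, against -0.23, -0.09 and -0.11 in WT hepatocytes at 2 h and -1.37, -1.29 and -0.95 in WT hepatocytes at 0.5 h. No replicate of KO or WT cells at 0.5 h overlapped any other group. Its difference of -2.06 ± 0.16 (adjusted p = 6.11e-06) was nearly equal on the dyes, with -2.27 on Cy5 and -1.84 on Cy3.

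For Cap1, an adenylyl cyclase-associated protein that binds actin, KO cells at 2 h stood alone. Cap1 had log2 ratios of -2.23 and -2.13 in KO hepatocytes at 2 h and 0.11, 0.02 and 0.22 in KO hepatocytes at 0.5 h, against 0.55, 0.67 and 0.59 in WT hepatocytes at 2 h and 0.70, 0.85 and 0.73 in WT hepatocytes at 0.5 h; where fewer than 3 values are given, here and below, the other replicate lacked 1 orientation. The KO step was -2.30 ± 0.11 (adjusted p = 2.74e-07) and the WT step -0.16 ± 0.10 (adjusted p = 0.227). The difference of -2.14 ± 0.15 (adjusted p = 5.79e-06) was -1.57 on Cy5 and -2.48 on Cy3.

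Gbp3, a guanylate-binding protein induced by interferon, and Pdgfd, a growth factor for mesenchymal cells, were lowest in WT cells at 0.5 h. Gbp3 had log2 ratios of -0.30, -0.17 and -0.21 in KO hepatocytes at 2 h and 0.12, 0.64 and 0.38 in KO hepatocytes at 0.5 h, against -0.31, 0.27 and 0.02 in WT hepatocytes at 2 h and -1.87 and -1.97 in WT hepatocytes at 0.5 h. For Gbp3 the KO step was -0.61 ± 0.15, the WT step 1.91 ± 0.17 and the difference -2.52 ± 0.23 (adjusted p = 8.32e-05). Pdgfd had log2 ratios of -0.21 and -0.32 in KO hepatocytes at 2 h and 0.33 and 0.65 in KO hepatocytes at 0.5 h, against 0.58 and 0.33 in WT hepatocytes at 2 h and -1.45, -1.19 and -1.13 in WT hepatocytes at 0.5 h. The difference of -2.46 ± 0.22 (adjusted p = 0.000214) for Pdgfd was -1.67 on Cy5 and -2.93 on Cy3.

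The other large negative differences were larger on Cy3 than on Cy5. Nmbr, the neuromedin B receptor, had log2 ratios of -0.21, 0.09 and 0.02 in KO cells at 2 h, 0.14, 0.24 and 2.15 in KO cells at 0.5 h, 0.31, 0.33 and 0.42 in WT cells at 2 h and -1.63, -0.65 and -1.04 in WT cells at 0.5 h. Its difference was -2.34 ± 0.55, with -0.18 on Cy5 and -4.50 on Cy3. Vegfc, a growth factor of lymphatic vessels, had -0.34, -0.02 and 0.0005 in KO cells at 2 h, 0.45 and 1.79 in KO cells at 0.5 h, 0.32, -0.21 and 0.03 in WT cells at 2 h and -0.18, -1.33 and -1.34 in WT cells at 0.5 h. Scatter among the 0.5 h replicates was thus wide for both genes, and 1 KO replicate carried much of the mean. For Vegfc the difference of -2.24 ± 0.49 was 0.0013 on Cy5 and -4.35 on Cy3. Naa50, a subunit of an N-terminal acetyltransferase, had -2.04 ± 0.25, but its second probe had -0.14 ± 0.22 (adjusted p = 0.711). Xrcc4, a partner of DNA ligase IV in end joining, had -2.04 ± 0.49. Trav4d-4, a T cell receptor segment, had -2.01 ± 0.19, with 0.02 on Cy5 and -4.24 on Cy3, and its second probe had -2.22 ± 0.29 (adjusted p = 0.00111). With the dye profiles removed, Nmbr, Vegfc, Naa50, Xrcc4 and the first Trav4d-4 probe were no longer called (adjusted p = 0.131 to 0.400), while the second Trav4d-4 probe still was, at -1.09 (adjusted p = 0.0176).

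**Figure D3:**
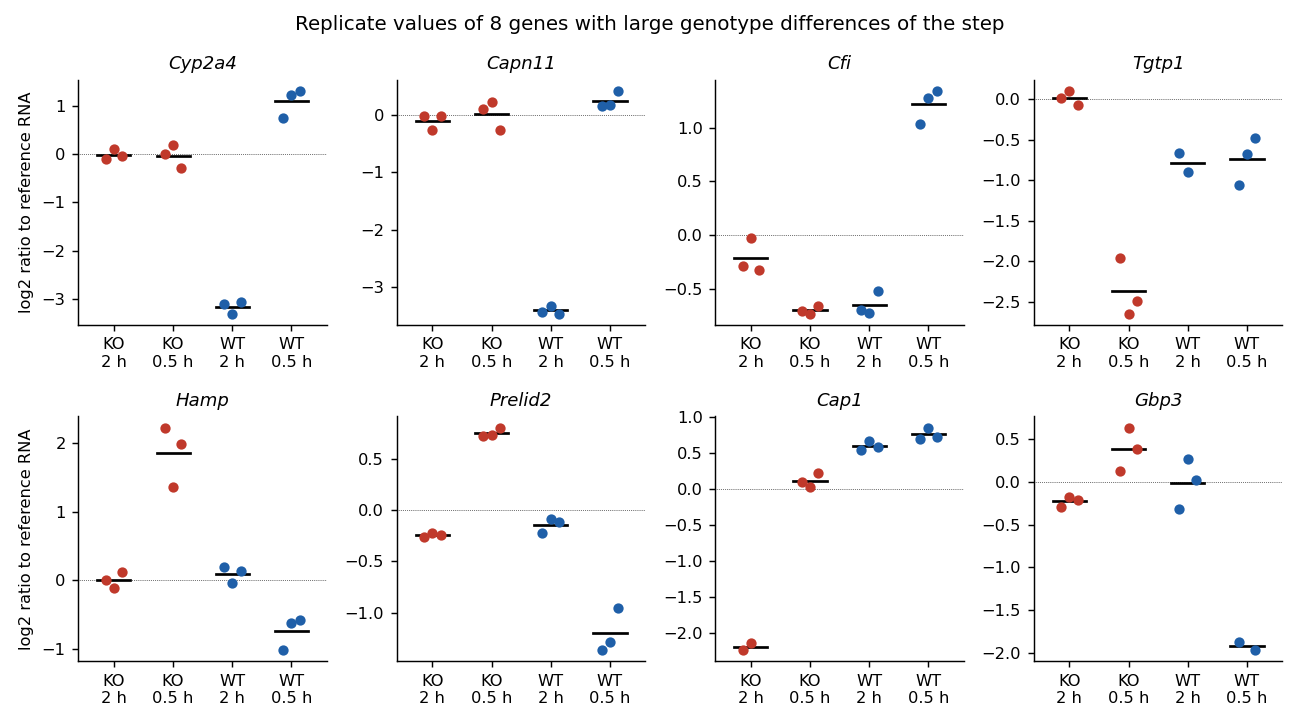
Replicate log2 ratios to the reference RNA (vertical axes, each with its own scale) of 8 genes in KO cells (red) and WT cells (blue) at 2 and 0.5 h; each point is a replicate, the mean of its 2 arrays, and bars are group means. WT cells at 2 h stand apart for Cyp2a4 and Capn11, WT cells at 0.5 h for Cfi and Gbp3, KO cells at 0.5 h for Tgtp1, and KO cells at 2 h for Cap1. For Hamp and Prelid2 both groups at 0.5 h stand apart, KO cells above and WT cells below the 2 h values.

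Most immediate early genes showed no called genotype difference in this step, although several differed between the genotypes at both times. Egr1 had log2 ratios of -0.04, -0.09 and -0.49 in KO hepatocytes at 2 h and 0.14, 0.24 and 0.40 in KO hepatocytes at 0.5 h, against 0.31, 1.23 and 1.09 in WT hepatocytes at 2 h and 1.01, 1.01 and 0.94 in WT hepatocytes at 0.5 h. Egr1, a zinc finger factor induced by ERK, differed between KO and WT cells by -1.08 ± 0.19 at 2 h (adjusted p = 0.00916) and -0.73 ± 0.19 at 0.5 h (adjusted p = 0.0169). The difference of its steps was -0.36 ± 0.27 (adjusted p = 0.408).

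Junb, an AP-1 subunit, and Dusp1, the phosphatase that inactivates MAP kinases, behaved likewise. Junb had log2 ratios of -0.47, -1.01 and -0.71 in KO hepatocytes at 2 h and -0.78, -0.74 and -0.59 in KO hepatocytes at 0.5 h, against -0.11, 0.37 and 0.35 in WT hepatocytes at 2 h and 0.02, 0.10 and 0.19 in WT hepatocytes at 0.5 h. All 6 KO values lay below all 6 WT values, and the difference of the steps was -0.13 ± 0.21 (adjusted p = 0.719). Dusp1 had log2 ratios of 0.33, 0.15 and 0.15 in KO hepatocytes at 2 h and 0.04, -0.19 and 0.22 in KO hepatocytes at 0.5 h, against 0.75, 1.21 and 0.98 in WT hepatocytes at 2 h and 0.45, 1.02 and 1.23 in WT hepatocytes at 0.5 h. For Dusp1 the genotypes did not overlap at either time, with -0.77 ± 0.18 at 2 h and -0.88 ± 0.18 at 0.5 h for KO minus WT, and the difference of the steps was 0.11 ± 0.25 (adjusted p = 0.817). Dusp6, a phosphatase specific for ERK, had a difference of 0.20 ± 0.18 (adjusted p = 0.49).

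Errfi1, an inhibitor of the EGF receptor, was high at 0.5 h in both genotypes. Errfi1 had log2 ratios of -0.0045, -0.06 and 0.52 in KO hepatocytes at 2 h and 1.34, 1.39 and 1.59 in KO hepatocytes at 0.5 h, against 0.42, 0.24 and 0.34 in WT hepatocytes at 2 h and 1.82, 2.29 and 2.20 in WT hepatocytes at 0.5 h. Both steps were downward, -1.29 ± 0.16 in KO cells (adjusted p = 0.00028) and -1.77 ± 0.16 in WT cells (adjusted p = 1.01e-05), and their difference of 0.48 ± 0.22 did not pass (adjusted p = 0.17).

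Hbegf, which encodes a ligand of the EGF receptor, had a called difference both as measured and with the dye profiles removed. Hbegf had log2 ratios of -0.04, -0.04 and -0.28 in KO hepatocytes at 2 h and 0.30, 0.16 and 0.43 in KO hepatocytes at 0.5 h, against 0.35 and 0.16 in WT hepatocytes at 2 h and 1.54, 1.68 and 1.70 in WT hepatocytes at 0.5 h. The WT values at 0.5 h exceeded all others by more than 1 log2 unit, and the KO values differed less between the times. Its KO step was -0.42 ± 0.11 (adjusted p = 0.0359), its WT step -1.39 ± 0.13 (adjusted p = 1.82e-05) and the difference 0.97 ± 0.17 (adjusted p = 0.00393). On Cy5 it was 0.30, on Cy3 1.62, and with the profiles removed 0.70 (adjusted p = 0.0239).

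In AP-1, 13 genes were measured, of which 1 was called higher and 2 lower, against 844 and 524 of all 11397 genes tested. Fosb went the other way from Hbegf: it had 0.53 and 0.22 in KO cells at 2 h, 1.27 and 0.11 in KO cells at 0.5 h, 1.56 and 0.87 in WT cells at 2 h and -0.11, -0.13 and 0.02 in WT cells at 0.5 h. With 2 values in 3 of its groups and KO values at 0.5 h that differed by more than 1 log2 unit, its difference of -1.60 ± 0.43 (adjusted p = 0.0333) was lost without any one WT replicate at 0.5 h. Jdp2, a repressor that pairs with Jun, had -1.11 ± 0.19 (adjusted p = 0.00261), and Mafk, a small Maf protein that pairs with Nrf2, had 0.83 ± 0.17 (adjusted p = 0.00806).

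Jun, the central AP-1 subunit, had 0.47, 0.48 and -0.13 in KO cells at 2 h, -0.05, -0.50 and -0.23 in KO cells at 0.5 h, 0.73, 0.82 and 0.64 in WT cells at 2 h and -0.55, -0.11 and -0.11 in WT cells at 0.5 h. Its KO step of 0.53 ± 0.17 did not pass (adjusted p = 0.0666), its WT step of 0.99 ± 0.17 did (adjusted p = 0.000779), and the difference of -0.46 ± 0.24 did not (adjusted p = 0.234). A call in one genotype and not in the other was thus no called difference here. Fos, its classical partner, had -0.03, -0.05 and -0.10 in KO cells at 2 h, -0.06, -0.07 and -0.09 in KO cells at 0.5 h, -0.26, 0.03 and -0.10 in WT cells at 2 h and -0.01, -0.15 and -0.40 in WT cells at 0.5 h. On the probe of these levels Fos had a difference of -0.06 ± 0.16 (adjusted p = 0.826). Its second probe, with values on as many arrays, had -0.69 ± 0.24 (adjusted p = 0.0705).

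Fosl1 and Atf3 are inducible factors of the same superfamily. For Fosl1 the difference was 0.09 ± 0.23 (adjusted p = 0.819), with means of -0.13 ± 0.14 in KO cells at 2 h, 0.19 ± 0.24 in KO cells at 0.5 h, 0.18 ± 0.34 in WT cells at 2 h and 0.59 ± 0.09 in WT cells at 0.5 h (SD). For Atf3 it was 0.44 ± 0.20 (adjusted p = 0.153), with 0.37 and 0.38 in KO cells at 2 h, -0.18, -0.18 and -0.19 in KO cells at 0.5 h, 0.14, 0.72 and 0.35 in WT cells at 2 h and 0.22, 0.37 and 0.25 in WT cells at 0.5 h.

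The list of other immediate early genes had 31 measured members, of which 1 was called higher and 1 lower, against 844 and 524 of 11397 genes. The one called higher was Gadd45a, a growth arrest gene, at 0.66 ± 0.15 (adjusted p = 0.0146). The one called lower was Ccn2, a matricellular protein regulated by YAP and TGF-beta. Ccn2 had log2 ratios of 0.04, -0.002 and 1.24 in KO hepatocytes at 2 h and 2.17, 1.88 and 2.42 in KO hepatocytes at 0.5 h, against 0.62, 1.07 and 0.63 in WT hepatocytes at 2 h and 0.61, 1.26 and 0.80 in WT hepatocytes at 0.5 h. KO cells fell by 3.32-fold between the times (adjusted p = 0.00176), while the WT step was -0.12 ± 0.28, and the difference was -1.61 ± 0.39 (adjusted p = 0.0175), with -1.18 on Cy5 and -2.05 on Cy3. KO replicate 3 at 2 h, the replicate from another array set, lay more than 1 log2 unit above the other 2.

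For the rest of the early panel no difference was called. Ier2, an early nuclear protein, had means of -0.05 ± 0.22 in KO cells at 2 h, 0.53 ± 0.16 in KO cells at 0.5 h, 0.74 ± 0.44 in WT cells at 2 h and 1.00 ± 0.31 in WT cells at 0.5 h (SD, n = 3), with a difference of -0.32 ± 0.28 (adjusted p = 0.487). Myc, a growth regulator, had a difference of -0.21 ± 0.23 (adjusted p = 0.577), Klf6, a zinc finger factor, -0.05 ± 0.23 (adjusted p = 0.915), Egr2 -0.12 ± 0.21 (adjusted p = 0.754) and Phlda1, a pleckstrin homology protein, 0.44 ± 0.29 (adjusted p = 0.334). The sign on Cy5 was opposite to that on Cy3 for Egr1, Jun, Junb, Ier2, Klf6, Fos, Fosl1, Dusp1, Dusp6 and Met.

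Among 21 measured EGF receptor ligands and ERK feedback genes, 3 were called higher and 2 lower. This list and the next are to be read against 844 of 11397 genes called higher and 524 called lower. Besides Hbegf, Dusp10, a phosphatase of p38 and JNK, had 0.94 ± 0.26 (adjusted p = 0.035), while Spry2, a Sprouty inhibitor of receptor signalling, had -1.03 ± 0.19 (adjusted p = 0.00576) and Dusp14, of the same phosphatase family, had -1.09 ± 0.33 (adjusted p = 0.0426). Of the 5 called, Hbegf alone was still called with the dye profiles removed. Dusp10 lost its call without any one of 6 replicates, and Dusp14 without any one of 9. Among 18 measured genes of the Met receptor and its adaptors, the one called was Hgfac, the protease that activates HGF, at 0.91 ± 0.16 (adjusted p = 0.00447), with 0.78 on Cy5 and 1.06 on Cy3. Its KO step was -0.12 ± 0.12, and in WT cells it fell by 2.04-fold between the times (adjusted p = 4.42e-05).

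Endoplasmic reticulum chaperones had many called members, all of one sign. These proteins fold and quality-check secreted proteins, a large share of what a hepatocyte makes, and their genes are induced together when unfolded protein accumulates. Of 25 measured members, 15 were called higher and 0 lower, against 844 and 524 of all genes tested, and 24 had a positive difference. Their median difference was 0.68, against 0.05 for all 11397 genes tested. The median KO step was -0.24, with 8 members called downward, and the median WT step -0.83, with 21 called downward. At 2 h the median KO minus WT difference was -0.09, and at 0.5 h it was -0.66.

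The median log2 ratio over the 25 members was -0.18 to -0.15 in the 3 KO replicates at 2 h, -0.01 to 0.06 in KO cells at 0.5 h, -0.16 to 0.02 in WT cells at 2 h and 0.68 to 0.75 in WT cells at 0.5 h. WT cells at 0.5 h thus stood apart from the other 3 groups, which lay near the reference. The median difference was 0.79 on Cy5 and 0.49 on Cy3, and 19 members were positive on both. With the dye profiles removed, 12 members were called higher and 0 lower. Scaling the arrays to equal spread left 9 called higher at a median of 0.50, scaling and removing the profiles left 4, and the fit with all 10 groups left 0.

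Pdia3, a protein disulphide isomerase, led the list. Pdia3 had log2 ratios of 0.17, 0.19 and 0.05 in KO hepatocytes at 2 h and -0.35, -0.03 and -0.40 in KO hepatocytes at 0.5 h, against 0.18 and -0.53 in WT hepatocytes at 2 h and 0.82, 0.81 and 0.87 in WT hepatocytes at 0.5 h. All 3 WT values at 0.5 h lay above every other value. Its difference was 1.41 ± 0.24 (adjusted p = 0.00303), close on the dyes at 1.35 on Cy5 and 1.34 on Cy3. Herpud1, which links misfolded proteins to the degradation machinery, had 1.37 ± 0.23 (adjusted p = 0.00261). Herpud1 had log2 ratios of -0.09, -0.05 and -0.04 in KO hepatocytes at 2 h and -0.62, -0.67 and -0.50 in KO hepatocytes at 0.5 h, against -0.31, 0.02 and 0.30 in WT hepatocytes at 2 h and 0.54, 1.20 and 0.77 in WT hepatocytes at 0.5 h. The KO cells at 0.5 h were lowest and the WT cells at 0.5 h highest.

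Pdia4, another isomerase, fell in both genotypes but further in WT cells. The KO step of Pdia4 was -0.78 ± 0.15, the WT step -1.95 ± 0.15, and the difference 1.17 ± 0.21 (adjusted p = 0.00422). Derl3, a channel component for disposal of misfolded proteins, had a KO step of -0.07 ± 0.12, a WT step of -1.16 ± 0.12 and a difference of 1.09 ± 0.17 (adjusted p = 0.00174). Hspa5, the chaperone BiP, had a difference of 0.68 ± 0.18 (adjusted p = 0.0241) that lay on Cy5, with 1.44, and not on Cy3, with -0.07. A second Hspa5 probe had 0.07 ± 0.13 (adjusted p = 0.751), and the first lost its call without KO replicate 3 at 2 h or WT replicate 3 at 0.5 h.

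**Figure D4:**
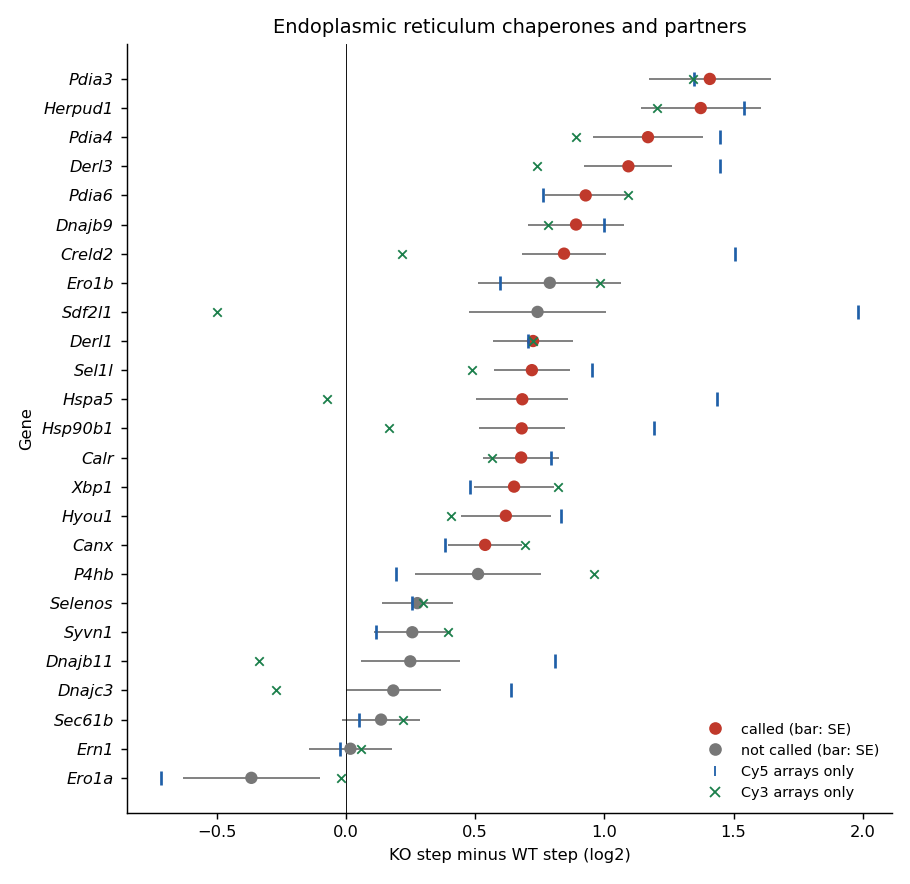
Genotype difference of the step (horizontal axis, log2, KO step minus WT step) for the 25 measured endoplasmic reticulum chaperones and partners, 1 row per gene; dots with bars are the difference and its SE, red where called, blue ticks the Cy5 arrays alone and green crosses the Cy3 arrays alone. Of the 25 genes, 24 lie right of 0, and Hspa5, Sdf2l1, Dnajb11 and Dnajc3 have a positive value on Cy5 and a negative one on Cy3.

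Genes of this group are known to share a promoter element, the ER stress response element, in which CCAAT and CCACG are separated by 9 bases, and it was searched on both strands in RefSeq promoters of GRCm38.p6, from 250 bases before to 50 after the start. Any 9 bases were allowed in the gap. Of 27025 genes with a promoter, 37 held it (0.137%), and of the 23 list members with a promoter, 10 did. It was in 7 of the 13 called members with a promoter and in 3 of the 10 others. Outside the list, 7 further genes with the element were tested, and none of these was called. The 5 promoters below show it in called members in both orientations, with the element in capitals. They were picked for holding the element, after the values were seen.
Derl3 (chr10:75893148-75893447, plus strand): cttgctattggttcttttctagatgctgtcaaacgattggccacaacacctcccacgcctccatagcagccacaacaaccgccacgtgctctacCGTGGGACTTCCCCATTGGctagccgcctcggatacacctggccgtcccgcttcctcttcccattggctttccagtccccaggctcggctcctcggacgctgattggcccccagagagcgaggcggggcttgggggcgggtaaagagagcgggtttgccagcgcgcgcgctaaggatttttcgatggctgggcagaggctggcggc
Pdia6 (chr12:17266339-17266638, plus strand): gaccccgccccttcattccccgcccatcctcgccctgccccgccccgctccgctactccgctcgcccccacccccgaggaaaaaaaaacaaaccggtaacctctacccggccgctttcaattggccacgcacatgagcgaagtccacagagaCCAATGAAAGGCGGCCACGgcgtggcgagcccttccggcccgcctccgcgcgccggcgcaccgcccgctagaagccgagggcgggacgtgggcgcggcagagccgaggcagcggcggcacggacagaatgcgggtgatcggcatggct
Hspa5 (chr2:34771840-34772139, plus strand): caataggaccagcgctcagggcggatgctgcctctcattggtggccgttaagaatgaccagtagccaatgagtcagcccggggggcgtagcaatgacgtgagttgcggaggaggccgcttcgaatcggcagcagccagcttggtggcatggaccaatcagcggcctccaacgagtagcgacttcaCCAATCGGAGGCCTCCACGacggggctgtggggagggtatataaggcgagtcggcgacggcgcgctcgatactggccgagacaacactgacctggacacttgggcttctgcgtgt
Hsp90b1 (chr10:86705395-86705694, minus strand): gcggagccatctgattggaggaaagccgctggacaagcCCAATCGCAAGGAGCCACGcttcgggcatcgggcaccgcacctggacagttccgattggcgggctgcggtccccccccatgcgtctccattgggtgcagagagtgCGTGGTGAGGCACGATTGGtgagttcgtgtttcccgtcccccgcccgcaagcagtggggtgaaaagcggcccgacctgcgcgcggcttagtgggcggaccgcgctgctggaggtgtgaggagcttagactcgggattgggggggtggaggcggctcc
Calr (chr8:84846882-84847181, minus strand): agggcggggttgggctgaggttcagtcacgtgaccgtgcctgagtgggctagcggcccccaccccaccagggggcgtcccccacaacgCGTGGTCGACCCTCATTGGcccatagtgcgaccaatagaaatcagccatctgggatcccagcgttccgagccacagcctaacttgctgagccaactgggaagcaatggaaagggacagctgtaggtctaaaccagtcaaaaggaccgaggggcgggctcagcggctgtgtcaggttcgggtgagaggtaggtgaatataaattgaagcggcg
Counted in bases from the start of the gene, the element begins at -156 in Derl3, -98 in Pdia6, -65 in Hspa5 and -162 in Calr, and Hsp90b1 holds 2, at -212 and -107. Differences of the step were 0.93 ± 0.16 for the isomerase Pdia6, 0.68 ± 0.17 for the chaperone Hsp90b1 and 0.68 ± 0.15 for the calcium-binding chaperone Calr. Creld2, a disulphide isomerase-like protein, had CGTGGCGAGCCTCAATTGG and a difference of 0.84 ± 0.16, and Canx, the membrane-bound lectin chaperone, had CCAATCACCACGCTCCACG and 0.54 ± 0.14. With the dye profiles removed, Hsp90b1, Calr and Canx were no longer called (adjusted p = 0.0619, 0.0919 and 0.143), and Canx lost its call as measured without any one of 5 replicates. A match is a run of letters and was not tested as a binding site.

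Among 21 measured amino acid stress genes, 1 was called higher and 2 lower, against 844 and 524 of 11397 genes. Ddit3, the stress-induced factor CHOP, sided with the chaperones. Ddit3 had log2 ratios of -0.46, -0.41 and -0.43 in KO hepatocytes at 2 h and -0.79, -0.75 and -0.72 in KO hepatocytes at 0.5 h, against -0.13, -0.12 and -0.24 in WT hepatocytes at 2 h and 0.89, 0.58 and 1.06 in WT hepatocytes at 0.5 h. The KO values at 0.5 h were the lowest and the WT values at 0.5 h the highest, with no overlap between any 2 groups. The difference was 1.33 ± 0.16 (adjusted p = 0.000341), with 1.85 on Cy5 and 0.81 on Cy3.

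Slc7a11, the cystine importer that feeds glutathione synthesis, went the other way. Slc7a11 had log2 ratios of -0.44, -0.55 and -1.15 in KO hepatocytes at 2 h and 0.37, 0.70 and 0.73 in KO hepatocytes at 0.5 h, against 0.54, 0.54 and 0.75 in WT hepatocytes at 2 h and 0.86, 0.54 and 0.94 in WT hepatocytes at 0.5 h. KO cells at 2 h lay below all the other groups. Its KO step was -1.32 ± 0.17 (adjusted p = 0.000466), its WT step -0.17 ± 0.17 (adjusted p = 0.47) and the difference -1.15 ± 0.25 (adjusted p = 0.0095), close on the dyes at -1.10 on Cy5 and -1.19 on Cy3. Phgdh, the first enzyme of serine synthesis, had a difference of -0.81 ± 0.18 (adjusted p = 0.0129).

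Acute phase proteins, whose secretion by the liver changes in inflammation, had 12 called differences of one sign. The list was not split into members that rise and members that fall in inflammation. Of 21 measured members, 12 were called higher and 0 lower, against 844 and 524 of 11397 genes. All 21 differences were positive, with a median of 0.73 against 0.05 over all genes. The median KO step was 0.25 and the median WT step -0.46. The list median was -0.16 to -0.01 in KO replicates at 2 h and -0.43 to -0.34 at 0.5 h, against -0.59 to -0.38 in WT replicates at 2 h and -0.02 to 0.06 at 0.5 h. The genotypes thus changed order between the times. On Cy5 the median difference was 0.42 and on Cy3 0.91, and with the dye profiles removed 8 members were called higher and 0 lower. Without KO replicate 3 at 2 h and with the profiles removed, 4 were called, and with all 10 groups in the fit 1 was.

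Serpina3n, a protease inhibitor, and Saa3, a serum amyloid, showed the pattern on both dyes. Serpina3n had log2 ratios of -0.04, 0.20 and 0.10 in KO hepatocytes at 2 h and -0.40, 0.20 and -0.47 in KO hepatocytes at 0.5 h, against -0.93, -1.11 and -0.42 in WT hepatocytes at 2 h and 0.70, 0.49 and 0.63 in WT hepatocytes at 0.5 h. The WT values at 0.5 h lay above all others, and those at 2 h overlapped KO cells at 0.5 h. Its difference was 1.74 ± 0.26 (adjusted p = 0.0014), with 1.88 on Cy5 and 1.60 on Cy3. For Saa3 the difference was 1.62 ± 0.31 (adjusted p = 0.00494), with replicate values of 0.02, 0.27 and -0.004 in KO cells at 2 h, -0.44, 0.35 and -0.37 in KO cells at 0.5 h, -0.99, -0.61 and -0.08 in WT cells at 2 h and 0.87, 0.73 and 0.82 in WT cells at 0.5 h. Apcs, serum amyloid P, had 1.40 ± 0.21 (adjusted p = 0.00157), and Ahsg, the mineral carrier fetuin A, had 1.17 ± 0.20 (adjusted p = 0.00298), mostly on Cy3.

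Among 46 measured proteins that hepatocytes secrete or carry on their surface, 17 were called higher and 1 lower, with a median of 0.40. Over all 11397 genes, 844 were called higher and 524 lower. The group leaned on Cy3, with a median of 0.08 on Cy5 and 0.71 on Cy3, and with the profiles removed 8 were called higher and 1 lower. Apoa4, an apolipoprotein of triglyceride transport, had 1.53 ± 0.19 (adjusted p = 0.000341), with 0.24 on Cy5 and 2.82 on Cy3. The coagulation factors F5 and F11 had 1.12 ± 0.16 (adjusted p = 0.00107) and 1.14 ± 0.23 (adjusted p = 0.0072).

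Chemokines and genes of the NF-kB response, which attract and activate leukocytes, had 26 measured members. Of these 11 were called higher and 0 lower, against 844 and 524 of 11397 genes, with a median difference of 0.49. The median was 0.21 on Cy5 and 0.70 on Cy3, and 16 members were positive and 1 negative on both. The KO step was called upward for 6, against 528 of all genes, and the WT step downward for 14, against 2345. With the dye profiles removed 8 were called higher, 3 with the arrays scaled as well, and 0 in the fit with all 10 groups. Cxcl9, a chemokine for T cells, rose in KO cells by 1.06 ± 0.18 (adjusted p = 0.00274), its WT step was -0.47 ± 0.18 (adjusted p = 0.0568), and the difference was 1.53 ± 0.26 (adjusted p = 0.0025). Cxcl5, a neutrophil chemokine, rose in KO cells by 0.57 ± 0.16 and fell in WT cells, with a step of -0.57 ± 0.16, a difference of 1.14 ± 0.23 (adjusted p = 0.00643). Nfkbiz, a nuclear regulator of NF-kB, had 1.12 ± 0.20 (adjusted p = 0.00369), nearly all on Cy3 at 2.02, against 0.23 on Cy5. Ccl5, described above, was the member with the largest difference.

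**Figure D5:**
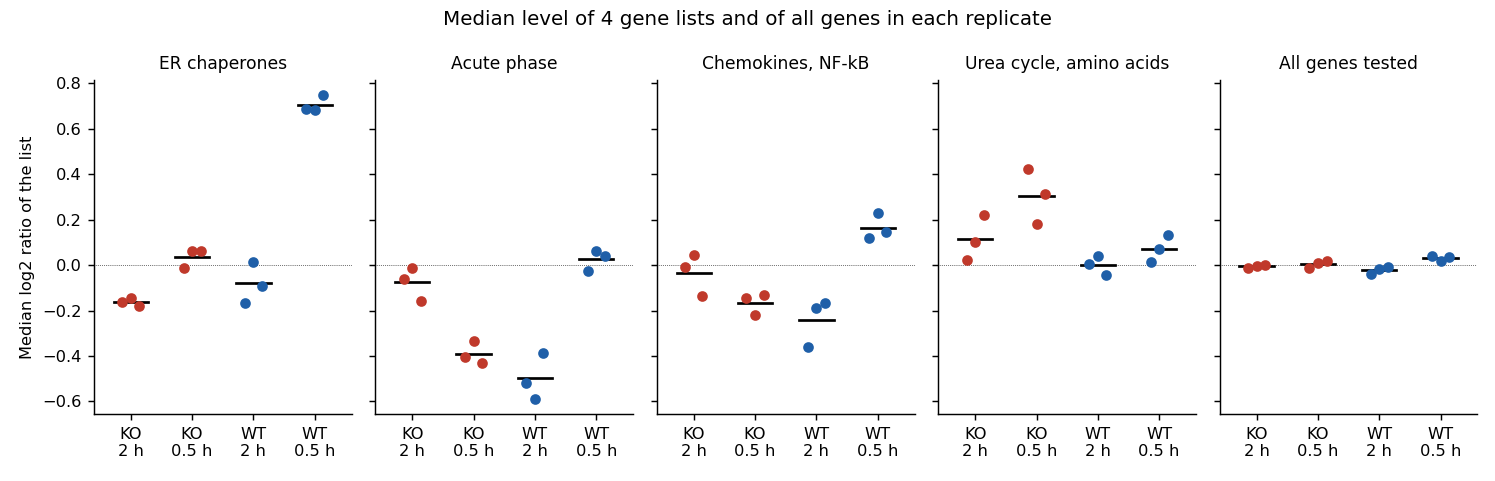
Median log2 ratio to the reference RNA (vertical axis) over the measured members of 4 gene lists and over all genes tested, in each replicate of KO cells (red) and WT cells (blue) at 2 and 0.5 h; bars are the means of 3 replicates. WT cells at 0.5 h are highest for endoplasmic reticulum chaperones, at 0.68 to 0.75, and WT cells at 2 h are lowest for acute phase proteins, at -0.59 to -0.38.

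Genes of the interferon response and of antigen presentation moved upward more often than downward. The KO step was called upward for 20 of 24 measured members and the WT step for 13, against 528 and 1394 of 11397 genes. The medians were 0.77 in KO and 0.35 in WT cells, and these steps were not split by dye. The difference of the steps was called higher for 7 and lower for 2, against 844 and 524 of all genes. With the dye profiles removed it was called for 5 and 2, against 369 and 221. The direction of the list depended on the dye, with a median difference of -0.13 on Cy5 and 0.56 on Cy3, and 4 members were positive and 5 negative on both. Ifit1, which binds foreign RNA, had 1.55 ± 0.26 (adjusted p = 0.00265) on both dyes together but -0.51 on Cy5 and 3.61 on Cy3. Oas1a, an RNA sensor of the 2-5A pathway, had 1.32 ± 0.18 (adjusted p = 0.00107) on both together, with -0.13 on Cy5 and 2.82 on Cy3. Mx1, an antiviral GTPase, was of one sign, with 0.43 on Cy5 and 2.21 on Cy3 and 1.32 ± 0.14 on both together (adjusted p = 0.000181). Gbp3, described above, was among those called lower, and its difference of -2.52 was the largest in size of the list. It was -1.34 on Cy5 and -3.53 on Cy3. Several of these genes have close copies that a probe may read together.

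Genes of the urea cycle and of amino acid breakdown, which dispose of nitrogen in the liver, had 29 measured members. Of these 5 were called lower and 0 higher, against 524 and 844 of 11397 genes. With the dye profiles removed, 7 were called lower, against 221 of all genes, and with the arrays scaled 3 were called lower and 2 higher. The list median was -0.08, with -0.44 on Cy5 and 0.10 on Cy3, so that the direction of the whole list depended on the dye. It was 0.05 with the arrays scaled and 0.07 without KO replicate 1 at 0.5 h. Cps1, the enzyme that brings ammonia into the urea cycle, was among the 5, which all had the same sign on both dyes. Cps1 had log2 ratios of -0.14, -0.22 and 0.36 in KO hepatocytes at 2 h and 1.02, 0.23 and 0.85 in KO hepatocytes at 0.5 h, against 0.25, -0.19 and 0.0005 in WT hepatocytes at 2 h and -0.55, -0.60 and -0.30 in WT hepatocytes at 0.5 h. KO and WT cells overlapped at 2 h and did not at 0.5 h, and the difference was -1.20 ± 0.28 (adjusted p = 0.0144), with -1.51 on Cy5 and -0.90 on Cy3. Prodh, proline dehydrogenase, had -0.81 ± 0.18 (adjusted p = 0.0129), Agxt, which detoxifies glyoxylate, had -0.79 ± 0.20 (adjusted p = 0.0197), and Cbs, of homocysteine breakdown, had -0.67 ± 0.17 (adjusted p = 0.0197).

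Cytochrome P450 genes were called higher in 6 of 28 and lower in 1, against 844 and 524 of 11397 genes. With the dye profiles removed they were called higher in 2 and lower in 3, against 369 and 221 of all genes. Cyp3a25 had a KO step of 0.18 ± 0.18, rose in WT cells, with a step of 1.47 ± 0.18 (adjusted p = 0.000157), and had a difference of -1.29 ± 0.26 (adjusted p = 0.00898). Cyp2c37 rose in KO cells, with a step of 0.62 ± 0.11 (adjusted p = 0.00398), fell in WT cells, with -0.42 ± 0.11 (adjusted p = 0.0107), and had a difference of 1.04 ± 0.16. In fatty acid and triglyceride synthesis 2 of 25 were called higher and 2 lower, against the same 844 and 524 of all genes. Fasn, fatty acid synthase, rose in both genotypes, by 0.44 ± 0.11 in KO and 1.12 ± 0.11 in WT cells, a difference of -0.68 ± 0.16 (adjusted p = 0.015). Mogat1, of triglyceride synthesis, fell in KO cells by 1.52-fold and rose in WT cells by 1.39-fold, a difference of -1.07 ± 0.18 (adjusted p = 0.00241).

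Of 13 tubulins, 1 was called higher and 1 lower, against 844 and 524 of 11397 genes. Tuba1a, an alpha tubulin, was the first. Tuba1a had log2 ratios of -0.45, -0.33 and -0.26 in KO hepatocytes at 2 h and -1.29, -1.01 and -0.93 in KO hepatocytes at 0.5 h, against -0.41, -0.60 and -0.54 in WT hepatocytes at 2 h and 0.39, 0.06 and 0.75 in WT hepatocytes at 0.5 h. It rose in KO cells and fell in WT cells, so that the genotypes were far apart at 0.5 h and close at 2 h. The difference was 1.65 ± 0.22 (adjusted p = 0.000621), with 1.15 on Cy5 and 2.14 on Cy3. Tubb3, a beta tubulin, had -0.67 ± 0.15 (adjusted p = 0.013). Among 31 apoptosis regulators, 3 were called higher and 2 lower, against the same 844 and 524 of all genes. The death receptor Fas rose in KO cells by 1.26 ± 0.16 (adjusted p = 0.000412), with a difference of 1.63 ± 0.23 (adjusted p = 0.00136), and Bcl2l1, which protects from apoptosis, fell there by 1.51-fold, with a difference of -0.71 ± 0.15 (adjusted p = 0.00977).

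The remaining lists had at most 6 called members each, to be read against 844 of 11397 genes called higher and 524 called lower. Among drug and hormone handling genes, 2 of 16 conjugating enzymes were called higher and 2 lower, 4 of 19 retinol and alcohol dehydrogenases higher and 2 lower, 4 of 35 glutathione and antioxidant genes higher and 2 lower, and 2 of 18 bile acid genes higher. Among metabolic genes, 4 of 29 of glucose and glycogen metabolism were called higher, 2 of 30 of fatty acid oxidation higher and 1 lower, 1 of 18 of cholesterol synthesis and uptake higher and 1 lower, 1 of 17 of the iron and BMP response higher and 2 lower, and 2 of 22 hepatocyte transcription factors and receptors higher. Of the machinery of growth, 2 of 50 cytosolic ribosomal proteins were called higher and 2 lower, 0 of 29 ribosome biogenesis genes higher and 3 lower, 3 of 29 proteasome subunits and 5 of 39 respiratory chain subunits higher, and 1 of 27 cell cycle genes higher. A ribosomal protein counted lower, at -0.60 ± 0.17 (adjusted p = 0.0362), had a second probe called higher, at 0.65 ± 0.17 (adjusted p = 0.0267). Among genes of cell shape and matrix, 4 of 44 of the actin cytoskeleton, integrins and motility were called higher, 2 of 17 S100 proteins and annexins higher and 1 lower, 1 of 17 YAP targets higher and 2 lower, and 5 of 29 pericellular proteases and matrix genes higher and 1 lower. Limma called 0 of 19 heat shock proteins, 0 of 25 translation factors and tRNA synthetases and 0 of 25 solute carriers; with the dye profiles removed, 1 heat shock protein was called lower and 1 gene of the translation list higher.

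Some markers of other liver cells were called as well. The counts that follow are to be read against 844 of 11397 genes called higher and 524 called lower. Of 10 measured Kupffer cell and macrophage markers, 2 were called higher, C1qb, a complement subunit, at 1.25 ± 0.22 (adjusted p = 0.00381) and Cd14, a lipopolysaccharide receptor, at 1.00 ± 0.24 (adjusted p = 0.0179). The median of that list was -0.07 to 0.01 in KO cells at 2 h and -0.11 to 0.02 at 0.5 h, against -0.24 to -0.11 in WT cells at 2 h and 0.11 to 0.18 at 0.5 h. Its median difference of 0.45 was close to that of the chemokine list, and its part in that result was not tested. Endothelial markers were called higher in 3 of 11, among them Emcn, endomucin, at 1.29 ± 0.31 (adjusted p = 0.0211), and lower in 1. Of 9 stellate cell and fibroblast markers, Dcn, decorin, was called higher at 1.63 ± 0.22 (adjusted p = 0.00102), while the median of that list was -0.24. Bile duct markers were called higher in 2 of 8, led by the chloride channel Cftr at 1.16 ± 0.19 (adjusted p = 0.00199). Lymphocyte and neutrophil markers were called lower in 2 of 11, and red blood cell markers higher in 1 of 4. Among 12 housekeeping genes, 2 were called higher, at a list median of 0.29 that lay on Cy3, with -0.10 on Cy5 and 0.65 on Cy3. Of 5 genes listed because they stood out in earlier results of these data, Capn11 and Vamp1 were called higher and Prelid2 and 1 other lower.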

How the data were processed

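The authors deposited, for each array, log2 ratios of hepatocyte RNA to a pooled WT RNA that served as common reference, with arrays of both dye orientations per replicate, per the labels. That the base is 2 and the sample is the numerator was assumed from the values and is not settled by them, and background correction and normalization are not given in the sources used here. The median of every array was set to 0, and the 2 orientations of a replicate were averaged as deposited. No array was turned, and that the ratios of both orientations run the same way was assumed. Probes with both orientations in at least 2 of 3 replicates of each group were kept (16795 of 21997). A model of group means was fitted to the 12 replicates with lmFit and eBayes of limma 3.58.1 (R 4.3.3), and p-values were adjusted by Benjamini-Hochberg over all tested probes. Other work used Python 3.11.15 and pandas 2.3.3.

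In simulated data with the same 16795 probes, 2 of 67 probes changed by 0.5, 43 of 67 changed by 1 and 65 of 66 changed by 2 (log2) were called, with 8 false calls. The simulated noise was independent for each probe and held no dye pattern or array run. Its false calls therefore do not measure those among the real calls. The dye profiles are the first 3 components of the Cy5 minus Cy3 difference of replicates.

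Genes were named through the platform's probe annotation, which can be old, with symbols updated where possible (15877 of the 16076 probes with 1 symbol). 288 probes with several symbols and 5633 with none were not named. For a gene with several probes, the one with values on most arrays was used. The naming rule took the 10 largest differences in each direction, up to 4 called members of each of 44 lists, and a panel of early response genes. It gave 152 genes, and not all of them are named above. Those of lists given only as counts were left out, as were some called members of other lists. The members and lists were chosen with earlier results of these data known. Chaperones named for their promoter element lie outside this rule. Ier3 and Areg, on the panel, had no tested probe. Array number limits the precision, and depth has no counterpart here. Alternatives changed the centring, scaling, dye handling, filter, samples in the fit, variance model and replicate block, and left out each replicate in turn.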

Additional observations from a re-analysis of the deposited data

Results flagged for a closer look

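The 2054 called probes are each a difference between genotypes under the same contrast, tested directly, and the genes named among them are gathered here with their KO step minus WT step on the log2 scale. No group holds more than 3 replicates, so no search for a replicate far from the others of its group was made.

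Positive differences among the largest were 4.28 for Cyp2a4, 3.54 for Capn11, 2.43 for Tgtp1, 2.35 for Cfi, 2.12 for Olfr9, 2.03 for Vamp1, 1.83 for Ms4a6b, 1.82 for Tfpi2, 1.82 for KLF11 and 1.79 for Ccl5. The largest negative ones were -2.69 for Hamp, -2.52 for Gbp3, -2.46 for Pdgfd, -2.34 for Nmbr, -2.24 for Vegfc, -2.14 for Cap1, -2.06 for Prelid2, -2.04 for Naa50, -2.04 for Xrcc4 and -2.01 for Trav4d-4.

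Among early response and receptor signalling genes the differences were -1.60 for Fosb, -1.11 for Jdp2, 0.83 for Mafk, 0.97 for Hbegf, -1.03 for Spry2, -1.09 for Dusp14, 0.94 for Dusp10, -1.61 for Ccn2, 0.66 for Gadd45a and 0.91 for Hgfac. Among chaperones they were 1.41 for Pdia3, 1.37 for Herpud1, 1.17 for Pdia4, 1.09 for Derl3, 0.93 for Pdia6, 0.84 for Creld2, 0.68 for Hspa5, 0.68 for Hsp90b1, 0.68 for Calr and 0.54 for Canx. Amino acid stress genes gave 1.33 for Ddit3, -1.15 for Slc7a11 and -0.81 for Phgdh.

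Among secreted proteins the differences were 1.74 for Serpina3n, 1.62 for Saa3, 1.40 for Apcs, 1.17 for Ahsg, 1.53 for Apoa4, 1.14 for F11 and 1.12 for F5. Chemokine and interferon genes gave 1.53 for Cxcl9, 1.14 for Cxcl5, 1.12 for Nfkbiz, 1.55 for Ifit1, 1.32 for Oas1a and 1.32 for Mx1. Metabolic genes gave -1.20 for Cps1, -0.81 for Prodh, -0.79 for Agxt, -0.67 for Cbs, -1.29 for Cyp3a25, 1.04 for Cyp2c37, -0.68 for Fasn and -1.07 for Mogat1.

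The remaining ones were 1.65 for Tuba1a, -0.67 for Tubb3, 1.63 for Fas and -0.71 for Bcl2l1, and, among markers of other cells, 1.25 for C1qb, 1.00 for Cd14, 1.29 for Emcn, 1.63 for Dcn and 1.16 for Cftr.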

How the results depend on the processing

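The number of calls, 2054, moved by over 1.5 times in several settings, and their causes were not tested. It was 34 on the Cy5 arrays, 5661 on the Cy3 arrays, 799 with the dye profiles removed and 80 with all 10 groups in the fit. It ranged between 1153 and 2090 when 1 replicate was left out. Settings added after the data were seen gave 563 with the profiles removed and KO replicate 3 at 2 h left out, 552 with the profiles removed and the arrays scaled, and 18 with the profiles removed and all 10 groups fitted. Calls were higher in 51.6% of cases as measured, 58.0% with the arrays scaled and 65.2% in a fit of single arrays with a dye term. The fit with the replicate number as a block gave 1524 calls, of which 1376 were shared. Replicates of the same number correlated between -0.07 and 0.04 after removal of group means, and those of different numbers between -0.08 and 0.12. Deviations from means of 3 replicates cannot show whether a number marks 1 mouse, which the labels do not say. Under the block 69 of 73 named called genes kept their call, and Dusp14, Gadd45a, Hspa5 and Canx lost it. Of the 73, 59 kept it with the arrays scaled, 59 with the profiles removed, 9 on the Cy5 arrays, 61 on the Cy3 arrays and 11 with all 10 groups.

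Some differences changed sign. On the Cy5 arrays these were Tgtp1 (-0.0105), Vegfc (0.0013), Trav4d-4 (0.0223), Ifit1 (-0.51) and Oas1a (-0.13), and among genes not called Met (-0.027), Dusp1 (-0.12), Dusp6 (-0.0353) and Alb (-0.0787). On the Cy3 arrays they were KLF11 (-0.18) and Hspa5 (-0.0713), and among genes not called Egr1 (0.65), Fos (0.0487), Fosl1 (-0.25), Jun (0.16), Junb (0.13), Ier2 (0.22) and Klf6 (0.11). The others that turned were not called. Scaling turned Fosl1 (-0.19) and Dusp1 (-0.23). Removing the profiles turned Fosl1 (-0.0946), Dusp1 (-0.0269) and Alb (-0.0386), with the same values in all 10 groups, and with scaling Fosl1 (-0.11), Dusp1 (-0.38) and Alb (-0.0286). Without KO replicate 3 at 2 h as well it turned Met (-0.0612), Fosl1 (-0.16) and Alb (-0.0171). The block turned Egr2 (0.0395) and Klf6 (0.089). Leaving out 1 replicate gave -0.20 to 0.0395 for Egr2, -0.15 to 0.0425 for Fos, -0.0727 to 0.27 for Fosl1, -0.29 to 0.00925 for Junb, -0.21 to 0.089 for Klf6 and -0.0568 to 0.33 for Dusp1. Signal over background was not analysed here, so dim probes could not be told from bright ones.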
